A study of Rattus norvegicus with 2 samples.

Results

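Chd7 peaks far from any Sox10 site were examined in rat oligodendrocytes, the cells that wrap axons of the brain and spinal cord in myelin. The members were selected on the Chd7 caller score, the distance to Sox10 and the local number of Chd7 peaks. They are Chd7 peaks on chromosomes 1 to 20 with a caller score below 120 and a centre more than 100 kb from the centre of the nearest Sox10 peak. Peaks in 1 Mb windows that held 30 or more Chd7 peaks were left out. This rule gave 1736 members of the 15310 Chd7 peaks, a share of 11.3% (95% exact interval 10.8% to 11.9%). Of the 14624 Chd7 peaks on these chromosomes they were 11.9%.

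Both proteins were mapped by chromatin immunoprecipitation and sequencing in primary Sprague Dawley oligodendrocyte progenitors that had differentiated for 3 days with T3, a thyroid hormone. The groups are the antibodies alone, one against Chd7 and one against Sox10, with 1 library each. The labels state no genotype, age, sex or number of animals pooled. No replicate, input list or second time point enters the comparison, so every interval below covers counting error only, and no test was made. Peak lists measure no transcripts, so the labelled cell type could not be set against its markers.

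Chd7 is a remodeler that uses ATP to move nucleosomes, and loss of a gene copy in humans causes CHARGE syndrome. It is known to sit at promoters and at distal enhancers of active chromatin. Sox10 is the transcription factor that oligodendrocytes need for terminal differentiation and for expression of myelin genes. Because the choice of members used the Chd7 score and the distance to Sox10, the values of score, width and distance are a description. Members are identified by position on the rat build rn5, in 1-based coordinates. No gene or sequence is assigned to them, since a genome or annotation of that build was not used here.

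The members were drawn from 11424 weak Chd7 peaks, those with a score below 120 outside the dense windows. Of these weak peaks 4775, or 41.8%, overlapped a Sox10 peak by at least 1 bp. Another 4913, or 43.0%, lay within 100 kb of a Sox10 centre without overlap, and the 1736 members made up the remaining 15.2% (14.5% to 15.9%). These groups are called overlapping, near and far peaks here. The rule's score limit took little away: 151 peaks of score 120 or more met the other criteria, which is 8.00% of the 1887 far peaks of any score. The dense windows held 133 of the 2020 peaks of any score beyond 100 kb.

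At the score and distance limits the values ran on closely. Just inside the score limit stood members of 119.94, 119.89 and 119.83, and just outside it far peaks of 120.51, 121.18 and 121.49. The members nearest to Sox10 were 100.06, 100.11 and 100.20 kb from a Sox10 centre, on chromosomes 8, 4 and 15. The weak peaks just short of the limit were 99.93, 99.89 and 99.82 kb away, on chromosomes 1, 18 and 5. For the window limit, the member with the most crowded surroundings lay on chromosome 12 in a window of 28 Chd7 peaks, followed by members on chromosome 2 in a window of 27. The first weak far peaks beyond this limit lay on chromosome 19 in a window of 34, so no weak far peak lay in a window between these sizes.

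Over the whole span, far peaks were about as frequent per Mb as weak Chd7 peaks without Sox10 that lay nearer to a Sox10 site, but this value depended on how the sequence was counted. Sequence more than 100 kb from every Sox10 centre made up 687 Mb, or 25.3%, of the 2720 Mb spanned by the lists outside dense windows. It held 26.1% (25.1% to 27.2%) of the 6649 weak Chd7 peaks without Sox10 overlap. The density was thus 2.53 members per Mb (2.41 to 2.65) in far sequence, against 2.42 per Mb (2.35 to 2.49) for near peaks within 100 kb, a ratio of 1.04. The near sequence includes the Sox10 peaks themselves, where a peak without overlap cannot lie, so the near density is somewhat low by construction. Counted instead in the 169 windows of 1 Mb without a Sox10 centre, weak Chd7 peaks without Sox10 overlap numbered 117, or 0.692 per Mb (0.573 to 0.830).

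Part of the far sequence carried no call of either antibody. There were 13 stretches of over 2 Mb without a peak in either list, 143 Mb in all. The longest spanned 65.4 Mb of chromosome 4, from 67825037 to 133185386. Others covered 19.7 Mb of chromosome 2, 11.6 Mb of chromosome 19 and 10.4 Mb of chromosome 6. The lists do not tell whether reads could be placed there. Without these stretches, which were singled out after the data were seen, the far sequence shrank to 547 Mb, or 21.2% of the total. The density of members then came to 3.17 per Mb (3.03 to 3.33), which is 1.31 times the 2.42 per Mb of near peaks. The stretches were defined by holding no peak, and the near sequence only went from 2032 to 2030 Mb. Leaving them out could therefore only raise the far density, so the direction of this change was fixed in advance. Of the 169 windows without a Sox10 centre, 36 touched no such stretch, and they held 113 of the 117 peaks, or 3.14 per Mb (2.59 to 3.77). The windows set aside were picked by that same absence of peaks.

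With these stretches left out, the density of weak Chd7 peaks without Sox10 was higher in the bands beyond 100 kb, up to 1000 kb, than in each band nearer to Sox10. It was 1.95 per Mb (1.72 to 2.19) within 2 kb of a Sox10 centre. That band includes the Sox10 peaks themselves, where a peak without overlap cannot lie, so its value is partly low by construction. From 10 to 20 kb the density was 2.34 per Mb (2.19 to 2.50), and from 50 to 100 kb 2.73 per Mb (2.58 to 2.89). Among the members it was 3.04 per Mb (2.80 to 3.29) from 100 to 150 kb, 2.98 per Mb (2.67 to 3.32) from 150 to 200 kb and 3.44 per Mb (3.10 to 3.80) from 200 to 300 kb. The intervals of both bands from 100 to 200 kb overlap that of the 50 to 100 kb band, as do those from 500 to 1000 kb and beyond 1000 kb. From 500 to 1000 kb it was 3.39 per Mb (2.83 to 4.03), but 2.52 per Mb over the whole span. Only 8 members lay beyond 1000 kb, so the 1.80 per Mb there is loosely fixed (0.776 to 3.54). Far peaks of score 120 or more were much rarer, at 0.276 per Mb (0.234 to 0.324) on the same basis, against 0.246 per Mb (0.225 to 0.269) for those without overlap within 100 kb. Over the whole span the far value was 0.220 per Mb (0.186 to 0.258), so the order turned with the peakless stretches, and the intervals overlap either way.

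**Figure D1:**
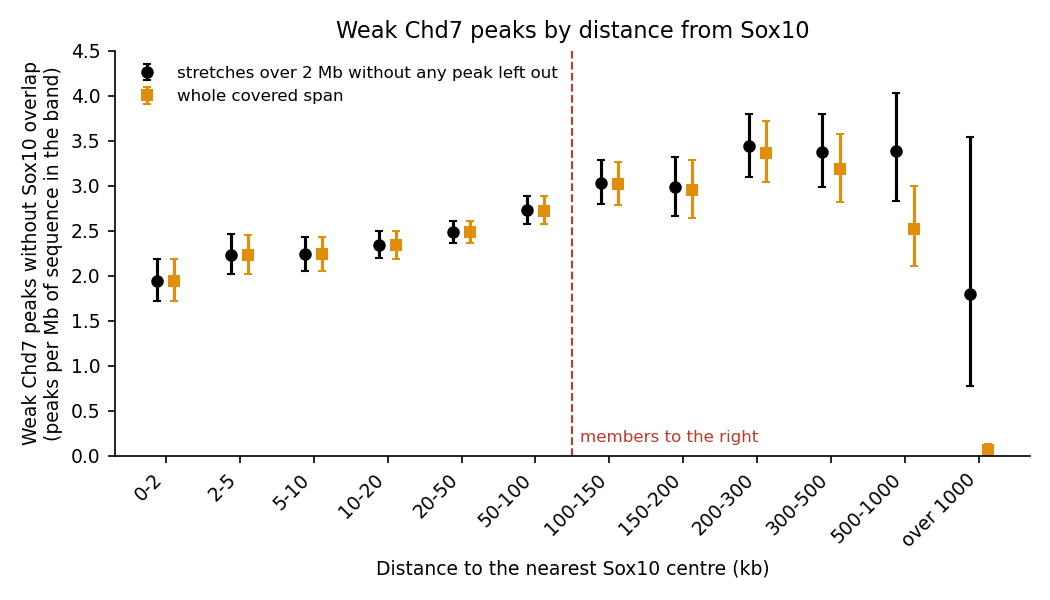
Weak Chd7 peaks without Sox10 overlap per Mb of sequence (vertical axis) in bands of distance to the nearest Sox10 centre in kb (horizontal axis). Black circles leave out stretches of over 2 Mb without any peak, orange squares use the whole covered span, and bars are 95% Poisson intervals. The black values run from 1.95 per Mb within 2 kb to 3.44 per Mb at 200 to 300 kb, with 2.98 per Mb at 150 to 200 kb. The sequence within 2 kb includes the Sox10 peaks, where no counted peak can lie, which lowers the first value. The whole-span value collapses beyond 1000 kb, where most of the peakless sequence lies.

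The median distance was 191 kb, with quartiles of 132 and 295 kb. Of the 1736 members, 802 lay beyond 200 kb, 415 beyond 300 kb and 135 beyond 500 kb. The farthest member, on chromosome 2 at 85726692 to 85726958, was 1423 kb from the nearest Sox10 centre and had a score of 55.27. The next was on chromosome 7 at 8505379 to 8505689, 1318 kb away with a score of 51.95, and it was the only Chd7 peak in its 1 Mb window. Such solitary members numbered 46, or 2.65%.

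The 10 farthest members came from 6 intervals between neighbouring Sox10 centres. Besides the first, the interval of 3153 kb on chromosome 2 held members at 85460572 to 85460958 (score 68.71) and at 85364336 to 85364726 (score 80.89). Chromosome 13 contributed members at 3674078 to 3674352 (score 64.71, 1199 kb away) and at 3524684 to 3525025 (score 79.42, 1050 kb away). On chromosome 3 the members at 24220946 to 24221176 and 24637089 to 24637527 scored 60.80 and 87.79. The last positions of this group fell on chromosome 1, at 77860524 to 77861077 (score 103.64) and at 110939781 to 110940078 (score 60.22). These scores span most of the range that the rule allows.

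Score and width varied little with distance among the members. The median score was 60.7 from 100 to 150 kb, 59.0 from 150 to 250 kb, 60.6 from 250 to 500 kb and 60.8 beyond 500 kb. The median widths in the same bands were 261, 259, 264 and 259 bp. Across the 1736 members, which share 1 library, Spearman's rho with distance was 0.0082 for score and -0.023 for width.

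Far and near peaks had similar scores, and overlapping peaks scored higher. The score is the peak caller's own value and grows with the strength of a call, though the lists do not state its scale. The median was 60.2 for the far peaks (quartiles 54.0 and 71.5), 59.6 for the near peaks (53.9 and 70.7) and 68.8 for the overlapping ones (57.7 and 86.5). The 95% binomial intervals of the medians were 59.3 to 60.9 for far and 59.2 to 59.99 for near peaks, which overlap, and 68.0 to 69.5 for overlapping peaks. Scores under 60 were held by 49.2% of the far, 51.5% of the near and 31.1% of the overlapping peaks.

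The share of far peaks among all Chd7 peaks outside dense windows differed between score classes. It was 17.6% (16.5% to 18.7%) for scores from 50 to 60, 13.8% (12.1% to 15.7%) from 70 to 80 and 8.21% (6.54% to 10.1%) from 100 to 120. Above the rule's limit it was 6.34% (5.03% to 7.87%) from 120 to 200 and 12.7% (10.1% to 15.6%) from 200 upward, so it was higher again in the strongest class. The overlapping share was 30.5%, 49.5% and 63.3% in the first 3 of these classes, 72.4% from 120 to 200 and 45.9% (41.8% to 49.97%) from 200 upward. Set against peaks without Sox10 overlap alone, the far share in the first 3 of these classes moved less: 25.3% (23.8% to 26.8%), 27.4% (24.2% to 30.7%) and 22.3% (18.1% to 27.1%). In the classes between them it was 26.9% (24.7% to 29.3%) from 60 to 70 and 29.2% (25.7% to 32.8%) from 80 to 100, the highest. From 120 to 200 it was 23.0% (18.5% to 27.9%) and from 200 upward 23.4% (18.9% to 28.5%). All these intervals of the far share among peaks without overlap overlap each other.

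Far peaks were narrow. Their median width was 261 bp (quartiles 227 and 312 bp), against 268 bp (230 and 333 bp) for near and 347 bp (282 and 422 bp) for overlapping peaks. Widths over 500 bp were found in 3.69% of the far, 5.52% of the near and 11.0% of the overlapping peaks. Since wider peaks also score higher, widths were set side by side within score classes. For scores from 50 to 60 the medians were 246 bp (far), 249 bp (near) and 287 bp (overlapping). For scores from 80 to 120 they were 325, 356 and 420 bp. The order of the medians was the same in both classes. In the lower class the 95% intervals of the far and near medians overlap (242 to 250 and 247 to 251 bp). In the higher class they do not (311 to 339 and 346 to 369 bp).

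**Figure D2:**
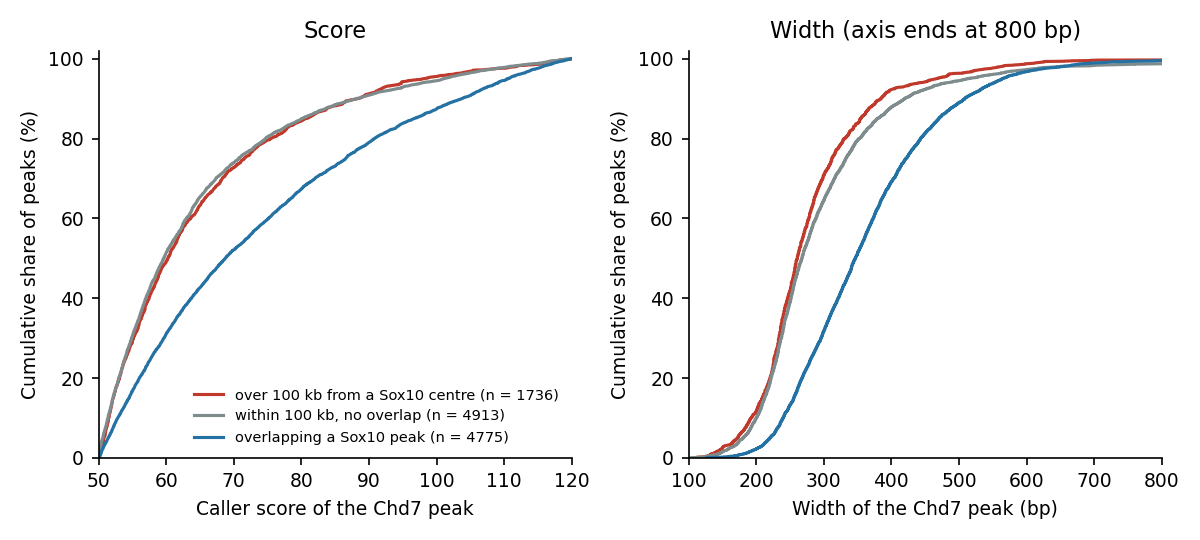
Cumulative share of weak Chd7 peaks in percent (vertical axes) by caller score (left) and by width in bp (right), for 1736 far, 4913 near and 4775 overlapping peaks. The far and near curves run almost together in score, with medians of 60.2 and 59.6, and the overlapping peaks lie to the right in both panels, with medians of 68.8 and 347 bp.

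A subset of the members combined a high score with a very narrow call. Among the 271 members scoring from 80 up to the limit, 38 were under 200 bp wide, a share of 14.0% (10.1% to 18.7%). For near peaks in the same class it was 9.19% (7.21% to 11.5%), and for overlapping peaks 0.448%, or 7 of 1561 (0.180% to 0.922%). The intervals of far and near peaks overlap, and both lie above that of the overlapping peaks. The 200 bp mark was chosen after the widths were seen.

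The 10 highest-scoring members, spread over 9 chromosomes, included wide and narrow calls. The first was on chromosome 4 at 171645796 to 171646421, with a score of 119.94 and a width of 626 bp. The second, on chromosome 3 at 24836684 to 24837168, scored 119.89, was 485 bp wide and lay 802 kb from Sox10. By contrast, 4 of the 10 were under 200 bp wide. They were on chromosome 17 at 46215958 to 46216102 (score 119.83, 145 bp) and at 47092018 to 47092151 (134 bp), on chromosome 1 at 201897701 to 201897850 (150 bp) and on chromosome 19 at 24560802 to 24560914 (113 bp). The last 3 of these narrow peaks had exactly the same score, 118.17.

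The other members of this group had widths between 237 and 540 bp. They lay on chromosome 7 at 81911466 to 81911801 with a score of 118.76, and on chromosome 6 at 147566851 to 147567087 with 118.53. The member at 127167013 to 127167285 of chromosome 2 scored 118.20, and that at 38440197 to 38440736 of chromosome 20 scored 118.13. Their distances to Sox10 ran from 110 kb for the member on chromosome 7 to 596 kb for the one on chromosome 6.

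Identical calls were common among the members. A total of 743 members, 42.8% (40.5% to 45.2%), had both the same score and the same width as at least one other peak of the whole Chd7 list. The share was 35.5% (34.2% to 36.9%) for near and 17.7% (16.6% to 18.8%) for overlapping peaks. Among scores under 60 it was 57.1% (53.7% to 60.5%) for far, 48.1% (46.2% to 50.1%) for near and 32.8% (30.4% to 35.2%) for overlapping peaks, so the order also held among the weakest calls. The repeated members had a median score of 56.4 and a median width of 242 bp, and the others 64.8 and 288 bp. The most frequent scores, 51.57 and 52.01, were each held by 12 members, on 9 and 11 chromosomes. Members with the same score and width cannot be ranked against each other. How the caller came to repeat these values was not tested.

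The widest members were not strong ones. The peak on chromosome 2 at 175953359 to 175954488 was 1130 bp wide with a score of 73.37, and the one on chromosome 20 at 4689005 to 4690006 was 1002 bp wide with a score of 70.38. A pair of neighbours on chromosome 1, at 221530496 to 221531439 and 221531729 to 221532620, measured 944 and 892 bp with scores of 67.99 and 58.26. The member on chromosome 15 at 10001977 to 10002830 was 854 bp wide and scored 69.64.

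All chromosomes held members, in numbers from 11 on chromosome 12 to 230 on chromosome 1. As a share of all weak peaks, members ranged from 5.79% on chromosome 12 (11 of 190, 2.93% to 10.1%) to 26.5% on chromosome 13 (119 of 449, 22.5% to 30.8%). As a share of weak peaks without Sox10 overlap, a measure added after the data were seen, members ranged from 12.8% on chromosome 12 (11 of 86, 6.56% to 21.7%) to 45.8% on chromosome 13 (119 of 260, 39.6% to 52.0%). Chromosome 15 followed with 33.2% (28.1% to 38.7%) and chromosome 18 with 30.7% (24.4% to 37.6%), whose intervals overlap. Chromosome 13 also had the highest share of far sequence without the peakless stretches, 33.3%. Over the whole span its share was 36.6%, below the 42.8% of chromosome 4. On chromosome 13, 27 of the 119 members came from 2 intervals between Sox10 centres.

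The member share was higher than the share of far sequence on 17 of 20 chromosomes when the peakless stretches were left out, the exceptions being chromosomes 8, 9 and 12. Its 95% interval lay wholly above the sequence share on 11 chromosomes and wholly below it on 0. Over the whole span these counts were 14, 6 and 2. Leaving out the peakless stretches could only lower the far sequence share of a chromosome or leave it unchanged, so the direction of this change was fixed in advance. The counts are a description, since the rule used the distance to Sox10. Without the peakless stretches the lower end barely passed on chromosomes 2, 17 and 20, at 24.1% against 24.0%, 15.3% against 15.2% and 18.5% against 18.3%. The sequence includes Sox10 peaks, where a peak without overlap cannot lie, so the far sequence share is somewhat low. The intervals also treat neighbouring members as independent. Across the 20 chromosomes the member share and the far sequence share had a Spearman's rho of 0.74 and a Pearson's r of 0.80, given as a description since both depend on where Sox10 was called. Density in far sequence without the peakless stretches ran from 1.19 members per Mb on chromosome 12 (0.595 to 2.13) to 4.54 per Mb on chromosome 15 (3.72 to 5.48), and these intervals do not overlap. Chromosome 4 had 1.09 members per Mb over its whole far span and 2.83 per Mb without its peakless stretch.

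**Figure D3:**
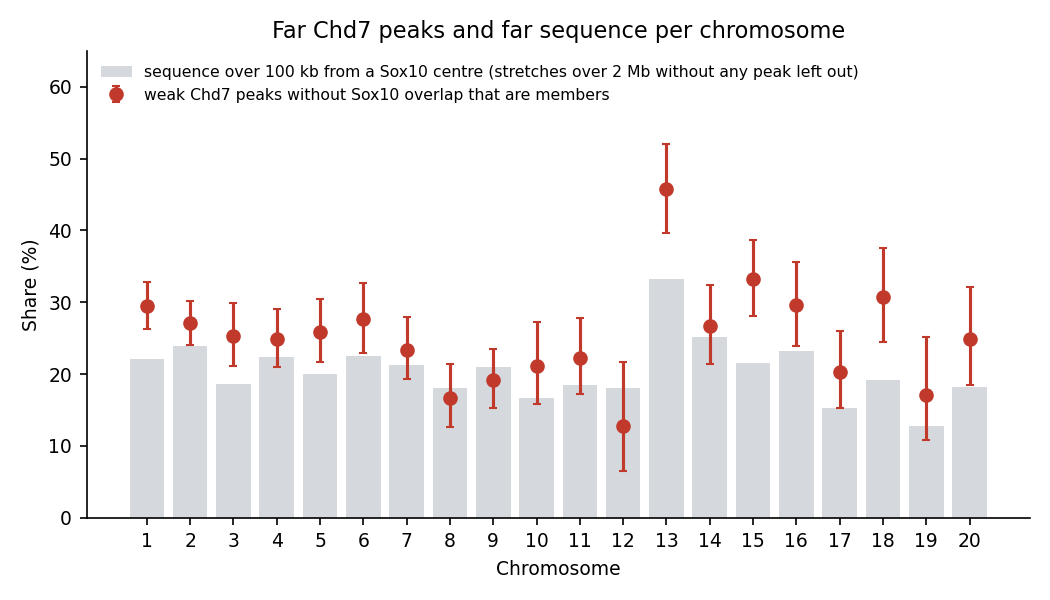
Share in percent (vertical axis) for each of the 20 chromosomes (horizontal axis). Grey bars give the sequence over 100 kb from a Sox10 centre without the peakless stretches, and red points the weak Chd7 peaks without Sox10 overlap that are members, with 95% exact intervals. The point lies above its bar on 17 chromosomes and is highest on chromosome 13, at 45.8%. Leaving out the peakless stretches could only lower the bars, and over the whole span the member share was the higher on 14 chromosomes.

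The members were scattered over many Sox10-free intervals. An interval is the stretch between 2 neighbouring Sox10 centres, and only those over 200 kb can hold a member. There were 2809 such intervals, and 897 of them, 31.9%, held at least 1 member. A single member was found in 513 of these, and 384 intervals with 2 or more members contained 1200 members, or 69.1% of all. Members of one interval share their surroundings and are not independent of each other. Outside all intervals, 23 members lay between a chromosome end and the outermost Sox10 centre.

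Intervals of up to 2000 kb held a member more often the longer they were. The share was 10.3% (8.78% to 12.1%) for intervals of 200 to 300 kb, 37.8% (34.6% to 41.1%) from 300 to 500 kb, 72.9% (68.4% to 77.0%) from 500 to 1000 kb and 92.6% (85.3% to 97.0%) from 1000 to 2000 kb. Per Mb of far sequence the same classes held 2.85, 3.01, 3.20 and 3.33 members, a much narrower range. Above 2000 kb, 13 of 24 intervals held a member, and the 11 others held none. The longest interval, 65.4 Mb on chromosome 4, was among the latter. Intervals above 2000 kb held 0.46 members per Mb of far sequence, with peakless stretches included. Far sequence of an interval is here its length less 200 kb, and dense windows were not taken out of it.

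**Figure D4:**
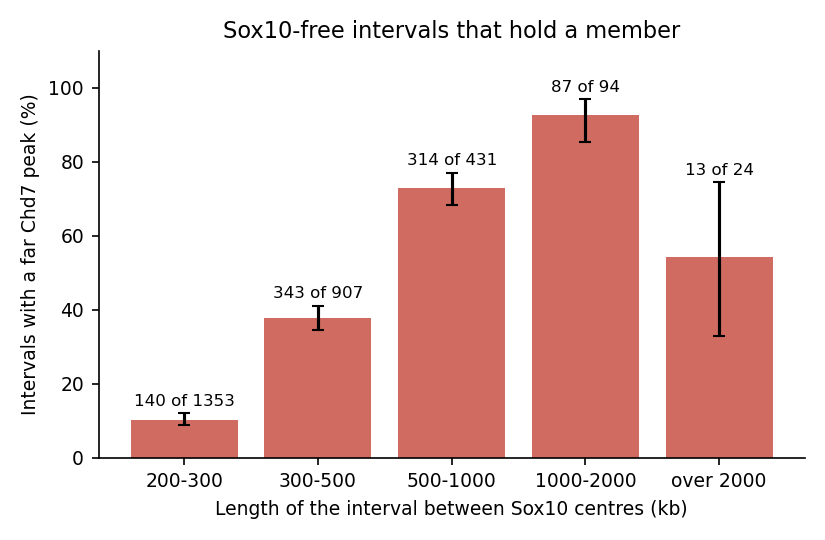
Share of intervals with at least 1 member in percent (vertical axis) by length of the interval between neighbouring Sox10 centres in kb (horizontal axis), with 95% exact intervals and counts above the bars. The share climbs from 10.3% at 200 to 300 kb to 92.6% at 1000 to 2000 kb, and is lower above 2000 kb, where 13 of 24 intervals hold a member.

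In 8 intervals there were 10 or more members, 101 in all. These intervals were singled out after their counts were seen. The fullest lay on chromosome 6 between Sox10 centres at 146971221 and 149035622 and held 18 members with scores from 50.03 to 118.53. On chromosome 13, the interval from 12386879 to 14360658 held 15 members and that from 34671663 to 36313386 held 12, and no other Chd7 peak lay in either. On chromosome 1, 15 members between 69749970 and 70160946 occupied the left part of an interval of 1185 kb and scored 78.03 at most.

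The most crowded was an interval of 471 kb on chromosome 17, where 11 members lay between 46037172 and 46223599, or 40.6 per Mb of its far sequence. Their median score, 82.0, was above the 60.2 of all members, and 7 other Chd7 peaks lay in the same interval. The other 3 of the 8 intervals had 10 members each, on chromosome 7 (3768060 to 5296962), chromosome 3 (21052580 to 21902093) and chromosome 1 (201612559 to 202018482). Their densities were 6.50, 11.3 and 15.9 members per Mb of far sequence.

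**Figure D5:**
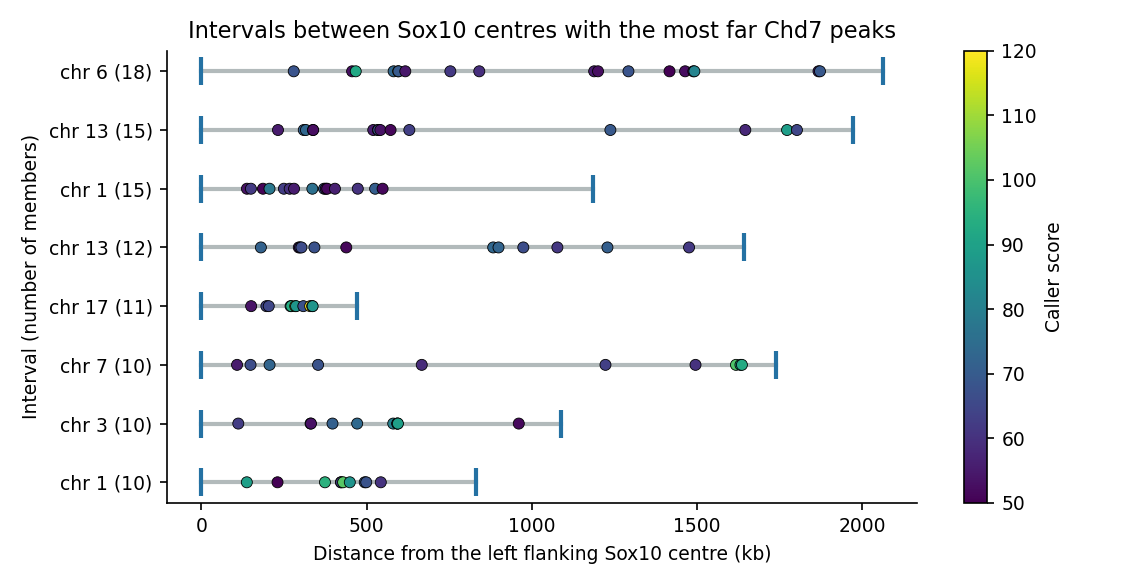
The 8 intervals with the most members, drawn from the left flanking Sox10 centre (horizontal axis, kb; blue ticks are both Sox10 centres). Circles are members coloured by caller score, and the number of members stands beside each chromosome. On chromosome 6, 18 members spread over 2064 kb, and on chromosome 17, 11 members lie within an interval of 471 kb.

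Most members had no close Chd7 neighbour. The nearest other Chd7 peak of any score was a median of 84.4 kb away (quartiles 19.4 and 180 kb), against 53.0 kb for near and 53.1 kb for overlapping peaks. By the rule no Sox10 centre lies within 100 kb of a member, so Chd7 peaks that overlap Sox10 are largely kept out of its surroundings. A larger distance than for the other groups was therefore partly fixed in advance, and the values here are a description. Another Chd7 peak lay within 10 kb of 17.0% of the members (15.3% to 18.8%), of 21.4% of the near peaks (20.3% to 22.6%) and of 15.5% of the overlapping peaks (14.5% to 16.6%). A Chd7 peak of score 120 or more lay within 100 kb of 6.91% of the members (5.76% to 8.21%). The rule lowers this share in the same way, and it was not computed for near or overlapping peaks.

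When members within 10 kb of each other were joined, 1466 stood alone and 228 formed 114 pairs. Only 13 groups had 3 or more, with 42 members. The largest had 5 members over 12.3 kb on chromosome 1, from 117896687 to 117908978, with scores from 76.42 to 116.69. Next came 4 members on chromosome 20 from 4736244 to 4744376, with scores from 55.13 to 101.36. The tightest groups of 3 were on chromosome 3, one over 1.66 kb from 80501330 to 80502990 and one over 2.48 kb from 21533774 to 21536258. In the first, widths ran from 317 to 397 bp, and in the second from 366 to 557 bp.

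Further groups of 3 lay on chromosome 7 (48305509 to 48310894), chromosome 15 (95567118 to 95573166 and 10033688 to 10041881), chromosome 1 (201897701 to 201904370), chromosome 17 (46215958 to 46223599) and chromosome 13 (12921324 to 12929035). Those on chromosomes 1 and 17 include the narrow, high-scoring members described above, and their lowest scores were 62.42 and 81.97. The group on chromosome 7 was weak throughout, from 52.50 to 56.69.

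The Sox10 sites that border the members had lower scores than the Sox10 list as a whole. By the rule these sites stand beside a stretch of over 100 kb without a Sox10 centre. Sox10 sites beside such stretches without a member were not compared, so whether lower scores are particular to sites beside members was not tested. The 1071 Sox10 peaks nearest to a member had a median score of 84.1 (95% binomial interval 80.5 to 89.0), those nearest to the near peaks 96.9 (93.7 to 100.3) and the whole Sox10 list 116 (115 to 117). Their median width was 576 bp, against 612 bp beside near peaks and 654 bp in the whole list. A Chd7 peak overlapped 13.6% of the Sox10 peaks nearest to members (11.6% to 15.8%), 14.0% of those nearest to near peaks (12.9% to 15.1%) and 15.9% of all Sox10 peaks on chromosomes 1 to 20 (15.5% to 16.2%). The first of these intervals overlaps both others. For the 10 farthest members the nearest Sox10 peak was weak, with a score of 52.13 to 60.52, except for the member on chromosome 1 at 110939781, where it was 451.81.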

How the data were processed

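The data are 1 Chd7 and 1 Sox10 peak list from rat oligodendrocytes. The authors deposited a position and a caller score for each peak, on the build rn5. The submitters' processing notes name CASAVA, Bowtie2 and MACS. Settings, the scale of the score and any control library are not stated there. Depth is unknown.

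Starts were taken as counted from 0. Centre distances, overlaps and neighbours were computed with scipy 1.17.1, pandas 2.3.3 and numpy 2.4.6 under Python 3.11.15, and tested on simulated data against direct enumeration. Amounts of sequence were measured at steps of 1000 bp from the first to the last peak of a chromosome. Shares have exact (Clopper-Pearson), densities Poisson and medians order-statistic 95% intervals. Peaks named are the 10 highest-scoring, 10 farthest and 5 widest members, the 10 largest groups and those at each limit. Members and rules were chosen with earlier results of these data known. Gene and sequence comparisons were not run.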

Additional observations from a re-analysis of the deposited data

How the results depend on the processing

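Of 88 alternative values, 59 stayed within the 95% interval of the reported value or, for counts, within 1.5 times of it. With a distance limit of 50 kb there were 2940 members in 1652 intervals, at a median of 117 kb and 35.2% of the weak peaks on chromosome 13, in place of 1736, 897, 191 kb and 26.5%. With 200 kb these were 802, 365, 306 kb and 18.0%, and the density fell from 2.53 to 2.14 per Mb. Against the upper 50% of Sox10 peaks by score there were 3498 members, at a median of 259 kb, 266 bp wide, 2.997 per Mb, 40.8% on chromosome 13 and 19.6% with a Chd7 neighbour within 10 kb, in place of 261 bp and 17.0%. Scores below 80 gave a median width of 256 bp, a median score of 58.0 and 2.13 per Mb. No score limit gave a median score of 61.6, 2.75 per Mb and 19.2% with a neighbour. Keeping dense windows gave 2.67 per Mb and 20.6% with a neighbour. Neighbours within 5 kb were found for 10.7% and within 50 kb for 38.2%. In 1 Mb windows without a Sox10 centre the density was 0.692 per Mb, from 117 peaks in 169 windows. Chosen after seeing the data, windows that touch no peakless stretch gave 3.14 per Mb, the removal of peakless stretches gave 3.17 per Mb, and members were 45.8% of the weak peaks without Sox10 overlap on chromosome 13. Since the peakless stretches were defined by holding no peak, their removal could only raise the density. Edge distances, the 3 kb width limit, the addition of X and the limit of 20 peaks per window moved none of the values beyond these bounds. The width limit could not remove a member, since the widest was 1130 bp. Adding X could not change the share on chromosome 13. Such fixed values are counted among the 59. No paired analysis was possible because the labels give 1 library per antibody, and no replicate could be left out. Gene and sequence alternatives were not run. Sites under the score floor cannot be seen.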

Other observations

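Chromosome X, outside the rule, held 258 Chd7 peaks that met its other criteria. They were 44.8% of the 576 weak X peaks outside dense windows (95% exact interval 40.7% to 49.0%), against 15.2% (14.5% to 15.9%) on chromosomes 1 to 20. These shares do not allow for how much of X lies far from Sox10, which was not measured separately. Per Mb of far sequence, adding X gave 2.60 members (2.49 to 2.72), against 2.53 (2.41 to 2.65) without it. No other sequence than chromosomes 1 to 20 and X was examined, which left out 55 Chd7 peaks.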
